A study of Mus musculus with 6 samples.

Results

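The genes described here carry glucose into the heart muscle cell, break it down to pyruvate and lactate, or store and release it as glycogen. They are 34 listed mouse genes, found by symbol among the 39171 Ensembl genes of the deposited table. All 34 had a mean of at least 1 FPKM, as did 13624 genes in all, and these were the genes tested. FPKM relate the fragments sequenced from a gene to its length and to library size, so levels of different genes can be set side by side. The ventricles came from CD-1 mice (WT; CD-1 is an outbred stock) at 2 days after birth (P2, 3 libraries) and at 1 day after birth (P1, 3 libraries). The mice carried no transgene and received no treatment per the labels, and each age is described as 3 hearts. Nothing else ties a library to an animal, so p-values measure the spread between these libraries, which may be technical.

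Glycolysis turns glucose into pyruvate in the cytosol, and lactate dehydrogenase interconverts pyruvate and lactate. Most steps have several isozymes encoded by separate genes, some enriched in striated muscle and others found in most tissues. The heart before birth depends largely on glucose and lactate, and in the first weeks of life oxidation of fatty acids becomes its main source of energy. Heart muscle also stores glycogen, which is built up around birth and drawn on when glucose or oxygen is short.

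Promoter sequence is shown first for 4 genes whose windows hold the letters ACGTG, because this is the core of the element bound by the hypoxia-inducible factors, which are known to act on glycolytic genes. The windows are the 250 bases before the RefSeq transcription start (GRCm38.p6), written 5′ to 3′ on the gene's strand. Capitals mark ACGTG on either strand, so CACGT stands for a match on the other strand and CACGTG for overlapping matches on both. Ldha, Ugp2 and Pgam1 are genes whose P2 values all lay above their P1 values, and Pgk1 is one whose ages overlapped.
Ldha, chr7:46845554-46845803, plus strand: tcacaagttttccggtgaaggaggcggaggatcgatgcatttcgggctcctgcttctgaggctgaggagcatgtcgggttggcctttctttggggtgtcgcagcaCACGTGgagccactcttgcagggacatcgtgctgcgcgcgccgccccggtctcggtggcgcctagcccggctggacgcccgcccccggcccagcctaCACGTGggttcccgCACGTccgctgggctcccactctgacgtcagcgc
Ugp2, chr11:21371268-21371517, minus strand: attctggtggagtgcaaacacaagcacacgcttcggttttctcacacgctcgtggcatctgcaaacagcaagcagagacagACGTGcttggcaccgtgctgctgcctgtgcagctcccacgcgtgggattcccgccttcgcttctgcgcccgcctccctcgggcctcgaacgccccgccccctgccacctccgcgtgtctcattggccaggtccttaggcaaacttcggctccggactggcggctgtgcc
Pgam1, chr19:41911621-41911870, plus strand: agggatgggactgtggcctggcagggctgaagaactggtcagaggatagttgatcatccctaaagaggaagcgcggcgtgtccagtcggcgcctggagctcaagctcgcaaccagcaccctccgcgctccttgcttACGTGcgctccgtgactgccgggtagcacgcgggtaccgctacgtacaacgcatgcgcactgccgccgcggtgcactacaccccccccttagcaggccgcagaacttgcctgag
Pgk1, chrX:106186850-106187099, plus strand: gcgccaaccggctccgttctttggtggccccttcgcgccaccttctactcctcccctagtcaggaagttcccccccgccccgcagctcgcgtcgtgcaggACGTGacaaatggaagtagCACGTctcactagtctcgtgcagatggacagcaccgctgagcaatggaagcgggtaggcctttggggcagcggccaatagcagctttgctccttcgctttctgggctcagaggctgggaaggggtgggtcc

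The Ldha window, which falls in an intron of a longer annotated transcript, held 5 matches, with first bases at -145, -144, -48, -47 and -34 from the start, and 2 of its sites read CACGTG. Ldha and Ugp2 each have a second window in the table, from another start, with 0 matches. The Ugp2 window shown had 1 match at -169, Pgam1 had 1 at -114 and Pgk1 had 2, at -150 and -131. Of the other members whose ages did not overlap, Pfkfb2 (P2 above) and Pygb and Gaa (both P2 below) held matches. Pfkl (P2 above) and Aldoc (P2 below) held 0, and Slc2a3 (P2 below) had no window. A link of matches to the direction of change was not tested. A window was found in the table for 32 of the 34 genes, and 16 of these held ACGTG in at least 1 window. The share was 25.4% of 9673 tested genes with a window and 18.5% of all 27025 genes with one. Members had more windows per gene, and counted by window the share was 20 of 50 for the members, against 21.6% of 12416 windows of tested genes. CACGTG was present for 5 of the 32 genes (15.6%), against 9.98% of the tested genes. The mean content of G and C was 58.6% in the members' windows and 60.1% in those of tested genes. A match describes the letters in these windows and does not show binding.

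The 6 libraries were alike in breadth, with 13355 to 13429 genes reaching 1 FPKM. Their total FPKM did not overlap between the ages, at 807632 to 858436 in P2 and 716968 to 754510 in P1. The files hold no counts, so the depth of each library and the counting error of each value are unknown. The cardiomyocyte markers summed to between 10658 and 10745 FPKM in P2 and between 10318 and 10604 FPKM in P1. Of these 10 genes, 3 lay above P1 in P2 without overlap and 1 below, against 14.4% and 10.6% of all tested genes. The lower one was Tnni1 (1572 to 1644 FPKM in P2, 1674 to 1795 in P1). Tnnt2, the cardiac troponin T gene, was not in this list. It was at 2681 to 3250 FPKM in P2 and listed at 0 in every P1 library, for a reason that was not tested. Of 16 skeletal muscle markers, 3 had a mean of at least 1 FPKM, and the defining genes Myod1 and Pax7 were at 0 in every library. The skeletal list summed to between 39.7 and 46.0 FPKM in P2 and between 47.2 and 55.2 FPKM in P1. Most of this sum was Tnnt1 (31.8 to 36.0 in P2, 39.4 to 45.7 in P1). Mybpc2 went the other way (3.48 to 4.39 in P2, 2.04 to 2.37 in P1), and Tnni2 overlapped. Neither the cardiomyocyte sum nor the skeletal sum overlapped between the ages. The same held for fibroblast (613 to 675 FPKM in P2, 535 to 610 in P1), endothelial (271 to 277 in P2, 239 to 263 in P1), erythroid (755 to 953 in P2, 962 to 1359 in P1) and atrial (236 to 619 in P2, 669 to 1083 in P1). Within these lists, P2 lay above P1 for 2 of 6 fibroblast and 4 of 6 endothelial genes (14.4% of all tested genes). P2 lay below P1 for 3 of 5 tested erythroid and 2 of 6 atrial genes (10.6% of all tested genes). The other genes overlapped, among them Col1a1, Hba-a1, Hbb-bs and Myl7. By log2 change, 1 fibroblast and 2 endothelial genes were lower and 2 atrial genes higher in P2. Leukocyte markers overlapped (24.5 to 30.1 FPKM in P2, 29.9 to 48.8 in P1). The part of these differences in the results below was not tested, and in whole tissue fewer cells of a type and less RNA per cell cannot be told apart.

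The pathway was strongly expressed at both ages and its levels differed little between them. Averaged over the 6 libraries, 2 of the 34 genes were above 1000 FPKM (Aldoa and Gapdh), 7 above 500, 15 above 100 and 27 above 10. Aldoa, the muscle and general aldolase, stood at the 99.6th percentile of all tested genes, and Pfkfb4 was the lowest member, at the 9.92th percentile. The summed FPKM of the members was 7582, 7700 and 7213 in P2 replicates 1 to 3 and 7610, 6919 and 7267 in P1 replicates 1 to 3, so the ages overlapped. As a share of each library's total FPKM this was 0.911%, 0.954% and 0.840% in P2 and 1.06%, 0.917% and 0.973% in P1, which also overlapped. The median log2 change of the 34 genes was 0.03, against 0.01 for all tested genes, with 20 higher and 14 lower in P2. This tally depended on the scaling: 14 were higher with quantile normalization (median -0.0129, against -0.0032 for all tested genes), and 6 with equal FPKM sums (median -0.14, also -0.14 for all tested genes). For 27 of the 34 the change was under 0.2 on the log2 scale in either direction, and 83.7% of all tested genes were inside the same limits.

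**Figure D1:**
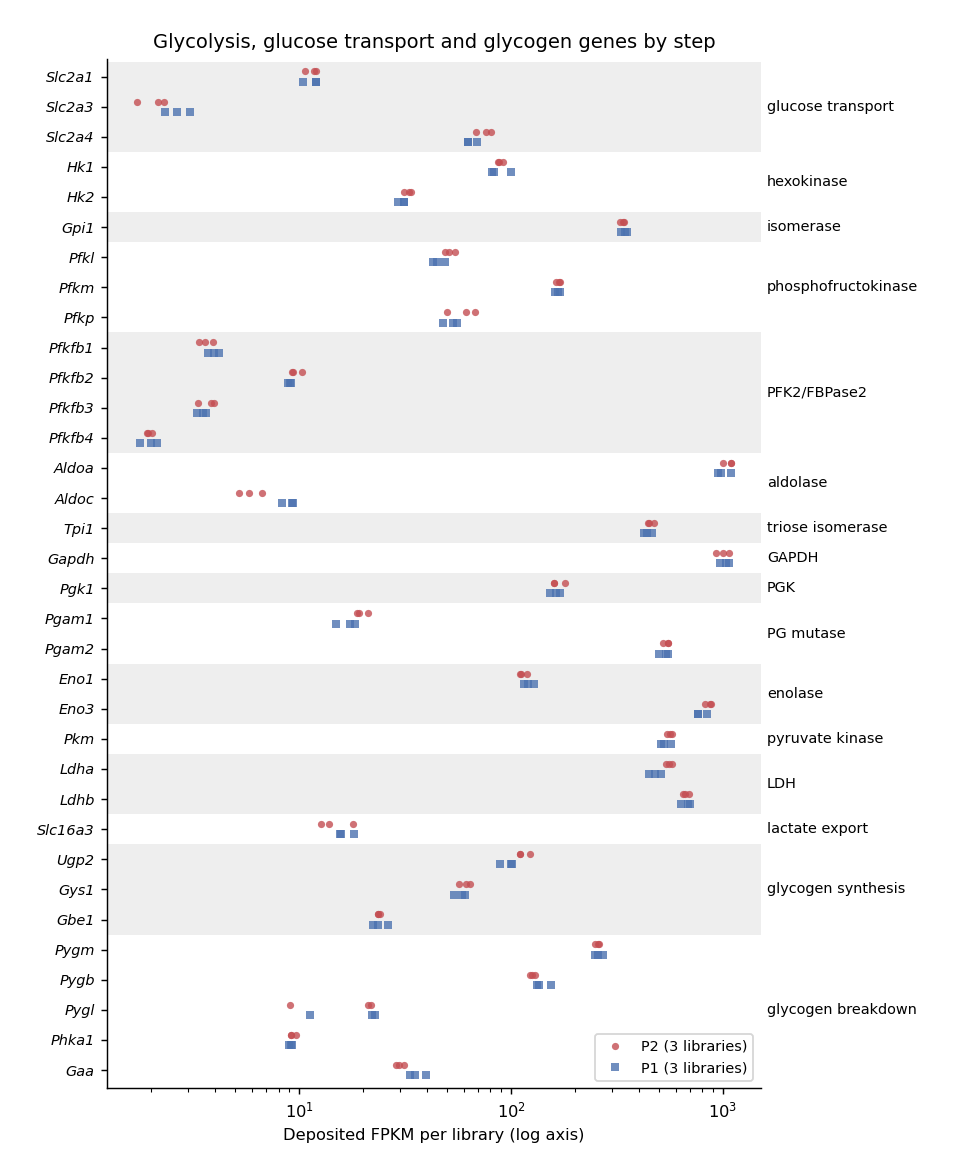
FPKM of the 34 genes in each library (log axis), ordered by step, with P2 as circles above P1 as squares. The symbols of both ages sit close together for most genes, and some isozymes of a step lie far apart, as with Aldoa at 1060 and Aldoc at 5.91 FPKM on average in P2, while Pfkfb1 and Pfkfb3 lie close together.

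The comparison of P2 with P1 asked which of these genes differ between the first 2 days of life. No member passed limma's test at a Benjamini-Hochberg adjusted p of 0.05 over all 13624 genes, where 0.161% of the tested genes did (0.0734% higher and 0.0881% lower in P2). At an unadjusted limma p under 0.05 there were 7 of the 34, 5 of them higher and 2 lower in P2, against 18.6% of all tested genes (10.7% higher and 7.89% lower). The ages did not overlap for 9 members, 5 with P2 above and 4 with P2 below, against 25.0% of all tested genes (14.4% above and 10.6% below). Both held for 6 members, 4 higher and 2 lower, against 17.3% of all tested genes (7.31% lower in P2, the others higher). These shares are near the background, so they are no result about this pathway. Changes are P2 minus P1 on the log2(FPKM + 1) scale, which understates those of genes at low levels, and are given with their standard error.

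**Figure D2:**
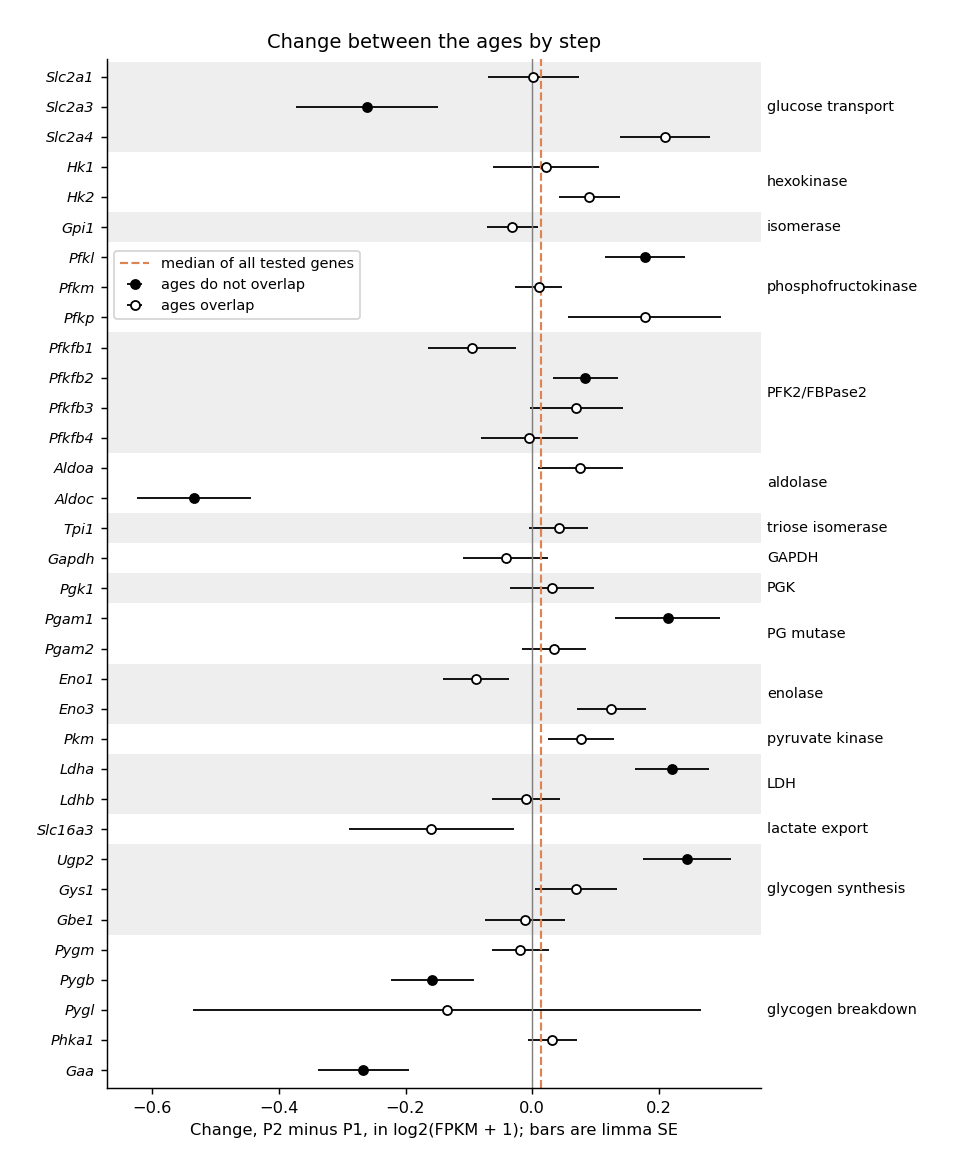
Log2 change of each gene, P2 minus P1, with the limma standard error; filled symbols mark genes whose ages do not overlap and the dashed line is the median of all tested genes, 0.01. Aldoc lies farthest from 0, at -0.53, and most genes lie within 0.2 of 0.

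Among the 3 listed glucose transporter genes, Slc2a4, which encodes the insulin-responsive transporter GLUT4, had the highest FPKM. It was at 76.6, 80.4 and 68.5 FPKM in P2 replicates 1 to 3 and at 69.0, 62.6 and 62.9 in P1 replicates 1 to 3, so that only the lowest P2 library was under the highest P1 library. Its log2 change was 0.21 ± 0.07 (limma, Benjamini-Hochberg adjusted p = 0.216). Slc2a1, the widely expressed transporter GLUT1, was at 11.5 ± 0.723 FPKM in P2 and 11.5 ± 0.910 in P1 (SD, n = 3 each). Slc2a3, the high-affinity transporter GLUT3 of neurons and blood cells, was the least abundant, at 2.31, 1.72 and 2.17 FPKM in P2 and 3.04, 2.64 and 2.33 in P1. The ages of Slc2a3 were set apart by a gap of 0.02 FPKM or less, and its change was -0.26 ± 0.11 (limma, adjusted p = 0.285). Slc2a4 made 84.7% ± 0.845 of the summed FPKM of the 3 genes in P2 and 82.1% ± 0.657 in P1.

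Hexokinases trap glucose in the cell, and Hk1, the form of most tissues, exceeded the insulin-responsive muscle form Hk2 in every library. Hk1 was at 89.2 ± 2.54 FPKM in P2 and 88.2 ± 10.4 in P1, with P1 replicate 3 the highest of all 6 libraries at 100.2. Hk2 was at 32.6 ± 1.40 in P2 and 30.6 ± 1.19 in P1. Hk2 thus made 26.8% ± 1.34 of the hexokinase FPKM in P2 and 25.9% ± 2.07 in P1, a difference inside the spread between libraries. Gpi1, which encodes the isomerase of the next step, was at 335 ± 7.01 FPKM in P2 and 342 ± 11.1 in P1.

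Phosphofructokinase makes the committed step, and all 3 of its subunits were present. The muscle subunit Pfkm led, at 167 ± 3.50 FPKM in P2 and 166 ± 4.56 in P1, one of the steadiest values of the set. The platelet subunit Pfkp was at 59.5 ± 9.15 in P2 and 52.2 ± 4.08 in P1. The liver subunit Pfkl was at 51.1, 54.2 and 48.8 FPKM in P2 and at 48.7, 44.6 and 42.7 in P1. Every P2 value of Pfkl lay above every P1 value, by a narrow gap between P2 replicate 3 and P1 replicate 1. Its change was 0.18 ± 0.06 (limma, adjusted p = 0.226). Pfkm made 60.2% ± 2.18 of the phosphofructokinase FPKM in P2 and 63.0% ± 2.08 in P1, and Pfkl 18.5% ± 0.317 in P2 and 17.2% ± 0.825 in P1.

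The bifunctional kinase and phosphatase enzymes that set the level of the strongest activator of phosphofructokinase were all low, with a summed 18.9 ± 0.561 FPKM in P2 and 18.4 ± 0.354 in P1. Pfkfb2, the heart isoform, made 50.8% ± 1.86 of this in P2 and 49.0% ± 1.64 in P1. Its values were 9.25, 10.3 and 9.33 FPKM in P2 and 8.86, 9.14 and 9.08 in P1. The P2 values lay above the P1 values, with a change of 0.08 ± 0.05 (limma, adjusted p = 0.434). Pfkfb1, first described in liver and muscle, was at 3.64 ± 0.279 in P2 and 3.96 ± 0.237 in P1. The inducible Pfkfb3 was at 3.71 ± 0.338 in P2 and 3.48 ± 0.167 in P1, and Pfkfb4 at 1.96 ± 0.0633 in P2 and 1.97 ± 0.174 in P1.

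Aldolase showed the widest split between isozymes, and its minor gene Aldoc had the widest log2 change of the 34 genes. The aldolase FPKM summed over both genes overlapped between the ages, at 1066 ± 50.8 in P2 and 1015 ± 71.1 in P1. Aldoa was at 1060 ± 51.5 FPKM in P2 and 1007 ± 70.9 in P1, and its ages overlapped. Aldoc (ENSMUSG00000017390), the isozyme best known from brain, is on chromosome 11, bases 78322968 to 78327781 (GRCm38, GENCODE M21). Its values were 5.81, 5.22 and 6.70 FPKM in P2 and 9.37, 9.23 and 8.31 in P1. The highest P2 library was below the lowest P1 library. The change of -0.53 ± 0.09 had the smallest p of the 34 genes but missed the threshold (limma, Benjamini-Hochberg adjusted p = 0.105, range 0.0220 to 0.289 over the alternatives). Aldoc was called when genes listed at 0 in any library were left out (adjusted p = 0.0415) and when libraries were scaled to equal FPKM sums (0.0220). Aldoc supplied 0.557% ± 0.0975 of the aldolase FPKM in P2 and 0.885% ± 0.0661 in P1.

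The later steps included abundant genes whose ages overlapped. Tpi1, triose-phosphate isomerase, was at 455 ± 15.1 FPKM in P2 and 442 ± 17.8 in P1. Gapdh, whose enzyme makes the first NADH of the pathway, was at 996 ± 70.01 in P2 and 1025 ± 49.6 in P1. Pgk1, the first ATP-forming enzyme, was at 166 ± 11.7 in P2 and 162 ± 9.09 in P1. Pkm, the pyruvate kinase of muscle and most other tissues, was at 563 ± 15.1 in P2 and 535 ± 29.7 in P1. The table gives 1 value per gene, so the M1 and M2 splice forms of Pkm, which differ by an exon, are not separated here.

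At the mutase step nearly all FPKM came from the muscle gene Pgam2, at 542 ± 17.2 in P2 and 529 ± 25.6 in P1. The general gene Pgam1 was at 18.7, 21.03 and 19.3 FPKM in P2 and 18.3, 15.0 and 17.3 in P1. Each P2 value was above each P1 value, with a change of 0.21 ± 0.08 (limma, adjusted p = 0.251), or 0.13 without P1 replicate 2. The value of Pgam1 is uncertain because the near-identical copy Pgam1-ps2 was listed at 7.46 FPKM in P2 and 6.31 in P1 on average, and how fragments were shared between copies is not known here.

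At the enolase step the muscle gene Eno3 was at 876, 871 and 826 FPKM in P2 and 837, 763 and 761 in P1. Only P1 replicate 1 reached above the lowest P2 library. Its change was 0.12 ± 0.05 (limma, adjusted p = 0.287) and was -0.05 with libraries scaled to equal FPKM sums, a scaling that moved the median over all genes to -0.14. The general gene Eno1 was at 114 ± 4.28 in P2 and 121 ± 6.39 in P1. Its copy Eno1b was listed at 12.4 FPKM in P2 and 12.6 in P1 on average. Eno3 made 88.3% ± 0.440 of the FPKM of both genes in P2 and 86.7% ± 0.253 in P1, and no library of one age reached the range of the other.

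Lactate dehydrogenase was the most abundant step, with 1224 ± 16.2 FPKM summed over its genes in P2 and 1150 ± 61.7 in P1. Its sums did not overlap, by a narrow gap (1206 to 1237 in P2, 1080 to 1197 in P1). The sums of glucose transport, of every earlier step of glycolysis and of glycogen phosphorylase overlapped. The ages of 25.0% of all tested single genes did not overlap either. Ldhb, whose heart-type subunit favours the use of lactate, was at 667 ± 23.6 in P2 and 672 ± 35.1 in P1. Ldha (ENSMUSG00000063229), whose muscle-type subunit favours the making of lactate, is on chromosome 7, bases 46841475 to 46855627. It was at 537, 577 and 559 FPKM in P2 and 509, 449 and 478 in P1. Each P2 value was above each P1 value, and the change was 0.22 ± 0.06 (limma, adjusted p = 0.163, range 0.119 to 0.686 over the alternatives). Ldhb made 54.5% ± 1.65 of the step in P2 and 58.4% ± 0.911 in P1. Slc16a3, the lactate exporter MCT4 of glycolytic cells, was at 13.8, 17.9 and 12.7 FPKM in P2 and 18.2, 15.8 and 15.5 in P1, and its ages overlapped.

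**Figure D3:**
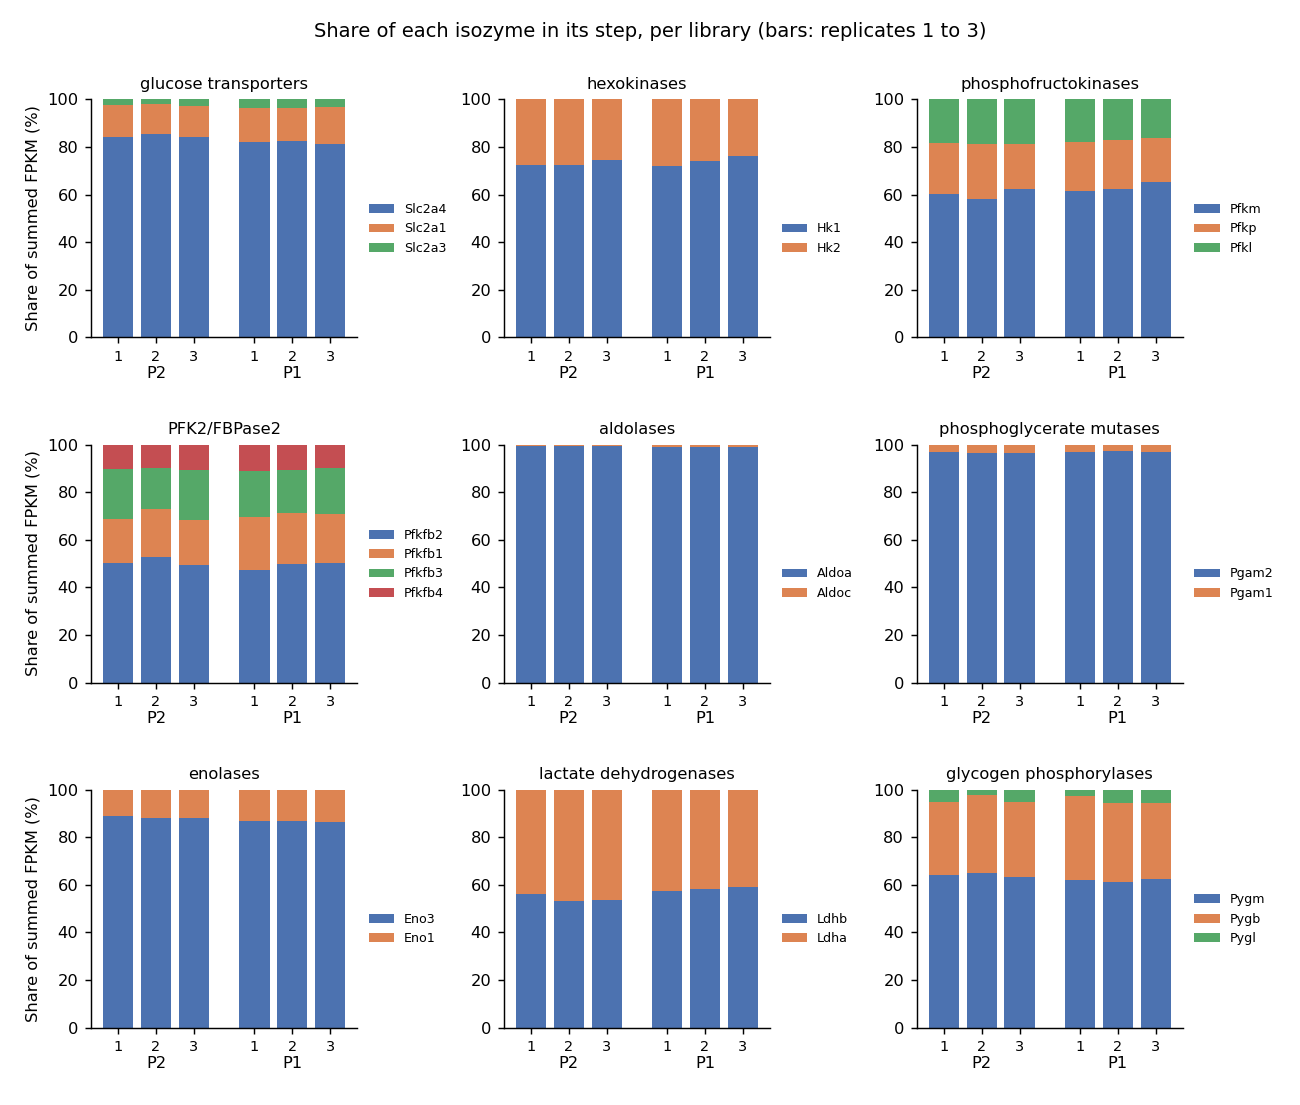
Share of each isozyme gene in the summed FPKM of its step (0 to 100%), a bar per library, P2 replicates 1 to 3 on the left and P1 replicates 1 to 3 on the right. Slc2a4, Aldoa, Pgam2 and Eno3 hold over 80% of their steps at both ages, and the Ldhb share is 54.5% in P2 and 58.4% in P1.

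Isozyme use was then compared as the log2 ratio of a pair of genes within each library. Such a ratio does not depend on how libraries are scaled to each other. The pair of Gys1 and Pygb, also counted below, sets glycogen synthase against a phosphorylase and is not a pair of isozymes. An exact permutation test of 3 against 3 libraries cannot go below p = 0.10, and 0.15 is the smallest value after Benjamini-Hochberg adjustment that these 12 pairs gave. The ages did not overlap for 8 of the 12 pairs, each with an exact two-sided p = 0.10 (adjusted 0.15). Several pairs share a gene and are not separate observations, and the ages of 25.0% of all tested single genes did not overlap either. The same share for ratios of other gene pairs was not computed. The 12 pairs were chosen with earlier results of these data known, so 8 of 12 is not read as an excess.

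The Eno3 to Eno1 ratio was 7.94, 7.36 and 7.39 in P2 and 6.55, 6.63 and 6.35 in P1, a log2 difference of 0.22 ± 0.04 (SE). The Slc2a4 to Slc2a1 ratio was 6.35, 6.85 and 6.41 in P2 and 5.76, 5.99 and 5.22 in P1, a difference of 0.21 ± 0.07. In both of these pairs the gene enriched in muscle weighed more in P2. In the next 3 pairs the first gene weighed less in P2. The Ldhb to Ldha ratio was 1.29, 1.14 and 1.16 in P2 and 1.35, 1.41 and 1.45 in P1, a difference of -0.23 ± 0.06. The Pgam2 to Pgam1 ratio was 27.6 ± 1.75 in P2 and 31.5 ± 1.75 in P1 (difference -0.19 ± 0.07). The Pfkm to Pfkl ratio was 3.26 ± 0.130 in P2 and 3.68 ± 0.297 in P1 (difference -0.17 ± 0.07, or -0.11 without P1 replicate 3). The isozymes named for muscle or heart therefore did not share a direction.

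Aldoa exceeded Aldoc by 182 ± 30.3 times in P2 and 112 ± 8.14 times in P1, the largest difference of the 12 pairs at 0.68 ± 0.16 on the log2 scale. The Hk2 to Hk1, Pfkp to Pfkl, Pfkfb2 to Pfkfb3 and Pygl to Pygb ratios overlapped between the ages. Their log2 differences were 0.07 ± 0.11, 0.00 ± 0.09, 0.00 ± 0.14 and 0.01 ± 0.59, and each changed sign when a library was left out.

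Among genes that build glycogen, Ugp2, which makes the activated glucose unit UDP-glucose, had the largest positive change of the 34. Ugp2 (ENSMUSG00000001891) is on chromosome 11, bases 21321138 to 21371201. It was at 110.2, 123 and 111 FPKM in P2 and 101, 88.9 and 99.99 in P1. Every P2 value lay above every P1 value, with a change of 0.24 ± 0.07 (limma, adjusted p = 0.173, range 0.115 to 0.573 over the alternatives). Gys1, the muscle glycogen synthase, was at 60.8 ± 3.73 in P2 and 57.9 ± 3.47 in P1. Gbe1, the branching enzyme, was at 23.8 ± 0.365 in P2 and 24.04 ± 2.06 in P1, and its ages overlapped.

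Among genes that break glycogen down, the muscle phosphorylase Pygm led, at 256 ± 6.63 FPKM in P2 and 259.6 ± 11.1 in P1. The brain-type phosphorylase Pygb, which is also a heart isozyme, was at 125, 130.3 and 122 FPKM in P2 and 154, 136 and 132 in P1. All P2 values lay below all P1 values, and the change was -0.16 ± 0.07 (limma, adjusted p = 0.274), or -0.09 without P1 replicate 1. The Pygm to Pygb ratio was 2.03 ± 0.0549 in P2 and 1.85 ± 0.0971 in P1, and the Gys1 to Pygb ratio was 0.483 ± 0.0255 in P2 and 0.412 ± 0.0287 in P1. Both were higher in P2 without overlap, by 0.14 ± 0.05 and 0.23 ± 0.07 on the log2 scale (exact permutation p = 0.10 each). Phka1, the muscle regulatory subunit of phosphorylase kinase, was the steadiest member, at 9.33 ± 0.261 in P2 and 9.11 ± 0.121 in P1.

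Gaa encodes acid alpha-glucosidase, which degrades glycogen in lysosomes and is deficient in human Pompe disease. Gaa (ENSMUSG00000025579) is on chromosome 11, bases 119267887 to 119285454. It was at 29.6, 31.2 and 28.5 FPKM in P2 and 35.2, 33.4 and 39.6 in P1. All P2 values lay below all P1 values, with a change of -0.27 ± 0.07 (limma, adjusted p = 0.164, range 0.0282 to 0.306 over the alternatives). It was called only with equal FPKM sums among the settings tried (adjusted p = 0.0282). Its promoter window also held CACGTG, with matches at -140 and -139.

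The liver phosphorylase Pygl stood apart from every other member in its spread. It was at 21.8, 9.10 and 21.1 FPKM in P2 replicates 1 to 3 and at 11.3, 22.02 and 22.8 in P1 replicates 1 to 3. One library of each age, P2 replicate 2 and P1 replicate 1, was thus at about 10 FPKM and the others above 20. Its coefficient of variation, averaged over the ages, was 37.8%, where the members' median was 5.98% and that of all tested genes 6.21%. The next most variable members were Slc2a3 at 14.2% and Slc16a3 at 13.8%. The low value of Pygl did not follow the age, and the change was -0.13 ± 0.40 (limma, adjusted p = 0.885).

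**Figure D4:**
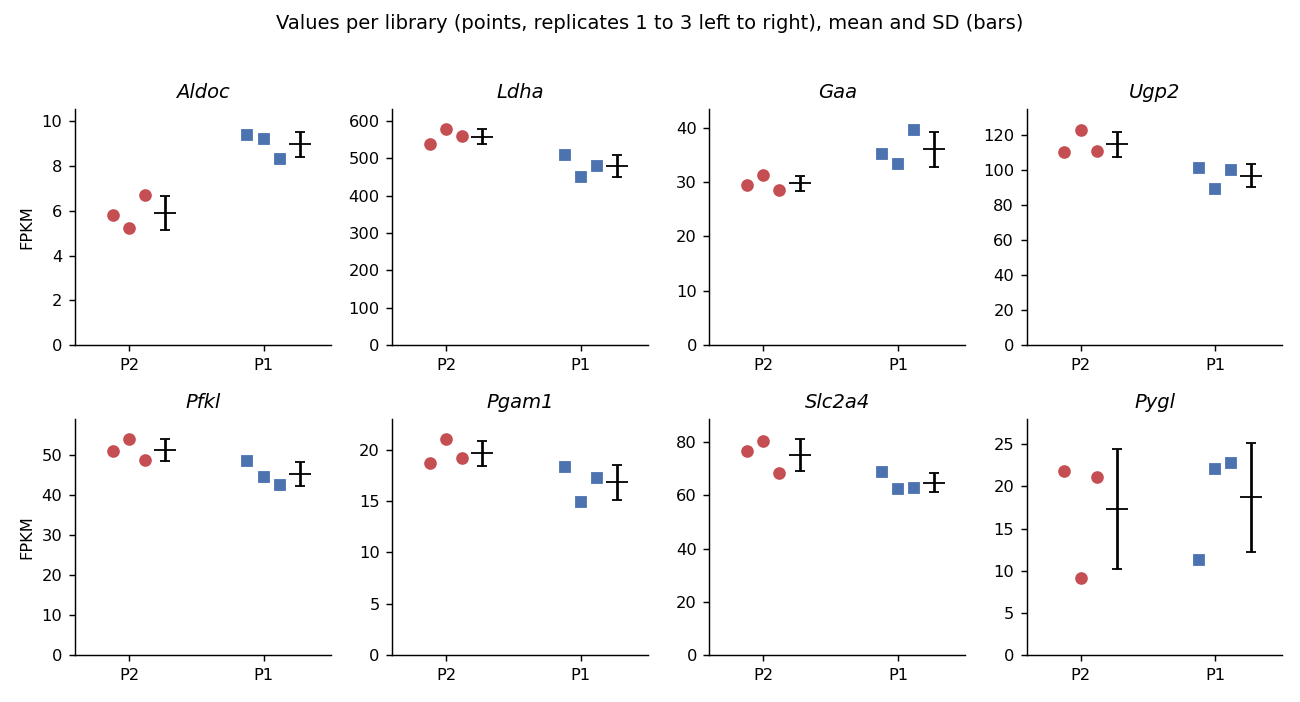
FPKM per library for 8 genes, P2 left and P1 right in each panel, with the mean and SD beside the points and axes from 0. Aldoc and Gaa are lower and Ldha, Ugp2, Pfkl and Pgam1 higher in all P2 libraries, while Slc2a4 overlaps and Pygl has a low library at each age.

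Many members were high or low in the same library. In P1 replicate 2, only 8 of the 34 genes were above their mean over the 6 libraries, against 48.4% of all tested genes. The members' median deviation there was -0.08 on the log2 scale, against 0.00 for all tested genes. Among 13 genes of the main line (Gpi1, Pfkm, Aldoa, Tpi1, Gapdh, Pgk1, Pgam1, Pgam2, Eno1, Eno3, Pkm, Ldha and Ldhb), 0 were above its mean in that library, while 11 were in P1 replicate 1 and 11 in P2 replicate 2. In P2 replicate 3, 3 of these 13 were above their mean. Of all tested genes, 37.7% were above their mean in P1 replicate 1, 58.6% in P2 replicate 2 and 56.5% in P2 replicate 3. The 13 genes were chosen with earlier results of these data known. Aldoc, which is not among them, was 0.31 above its mean in P1 replicate 2. Hk1, Hk2, Pfkl and Pfkp, also left out, were below theirs in that library. The members' median deviation thus ranged from -0.08 to 0.04 within P1 alone, and from -0.03 to 0.04 within P2. Leaving out P1 replicate 2, the median change of the 34 genes was 0.00, and leaving out P1 replicate 3 it was 0.04.

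**Figure D5:**
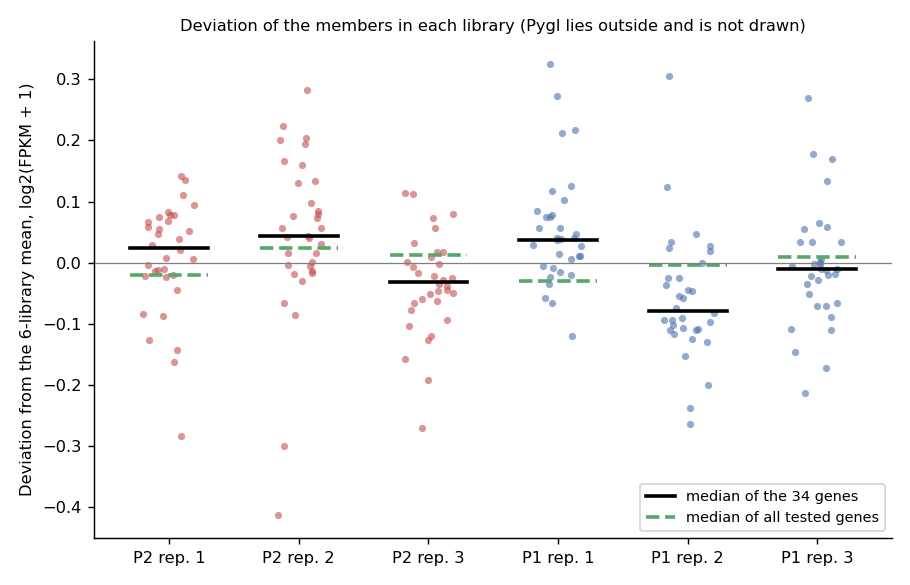
Deviation of each member from its 6-library mean in log2(FPKM + 1), by library, with the median of the 34 genes (solid) and of all tested genes (dashed); Pygl is outside the range and not drawn. P1 replicate 2 has the lowest members' median, -0.08, with that of all tested genes near 0.

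Other genes of the pathway came from a fixed list. Of 43 listed genes, 30 were tested and none passed limma's test over all genes, with 4 at an unadjusted p under 0.05, against 18.6% of all tested genes. Among these, Ppp1r3c, a subunit that directs the phosphatase to glycogen, was at 50.2 ± 2.05 FPKM in P2 and 43.6 ± 1.23 in P1 (log2 change 0.20 ± 0.04, limma adjusted p = 0.135). The phosphorylase kinase subunit Phka2 was at 16.01 ± 0.739 in P2 and 18.1 ± 0.697 in P1, and the glycogen synthase kinase Gsk3a at 23.01 ± 0.233 in P2 and 25.4 ± 1.09 in P1. Slc16a1, which carries lactate in both directions, was at 67.5 ± 8.10 in P2 and 58.4 ± 7.14 in P1 and its ages overlapped. Of the isozymes not among the members, Eno2, the neuronal enolase, was at 5.41 ± 0.661 in P2 and 6.66 ± 1.003 in P1. Hk3, Pklr, Gys2 and Slc2a2 were below the limit of 1 FPKM.

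Among 23 listed regulators of glucose use, none passed over all genes and 7 had an unadjusted limma p under 0.05, a threshold passed by 18.6% of all tested genes. Txnip, which restrains glucose uptake and whose transcription is induced by glucose, had the widest gap. It was at 126, 123 and 167 FPKM in P2 and at 321, 276 and 397 in P1, and no P2 library came near the lowest P1 library. Its change was -1.25 ± 0.17 (limma, Benjamini-Hochberg adjusted p = 0.0759, range 0.0199 to 0.255 over the alternatives). It was called with a filter of 5 FPKM (adjusted p = 0.0493), without genes listed at 0 (0.0199) and with equal FPKM sums (0.0220). Myc, a transcription factor that acts on glycolytic genes, was at 4.98 ± 0.535 in P2 and 6.95 ± 0.402 in P1 (change -0.41 ± 0.08, adjusted p = 0.119). Foxk2 was higher in P2, at 17.6 ± 0.122 against 15.9 ± 0.326 in P1 (change 0.14 ± 0.03, limma adjusted p = 0.146). Of the 7 regulators, 3 were higher and 4 lower in P2, where 10.7% of all tested genes were higher and 7.89% lower at that unadjusted p.

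Hif1a, the oxygen-regulated subunit of the hypoxia-inducible factor, was at 47.5 ± 4.61 FPKM in P2 and 45.6 ± 3.36 in P1. Its relative Epas1 was at 33.8 ± 1.89 in P2 and 29.4 ± 2.93 in P1. Among 14 targets of these factors outside glycolysis, none passed over all genes, with 3 higher and 2 lower at an unadjusted limma p under 0.05. Over all tested genes these shares were 10.7% higher and 7.89% lower. Higd1a was at 46.6 ± 2.28 in P2 and 37.4 ± 3.45 in P1 (change 0.31 ± 0.07, limma adjusted p = 0.145). Ddit4 was at 17.01 ± 1.92 in P2 and 12.1 ± 2.19 in P1 (change 0.46 ± 0.14, adjusted p = 0.177), and P4ha1 at 13.2 ± 0.651 in P2 and 11.6 ± 0.206 in P1 (change 0.18 ± 0.05, adjusted p = 0.156). The lower genes at that unadjusted p were Adm, at 5.77 ± 0.626 in P2 and 6.88 ± 0.356 in P1, and Mxi1, at 7.08 ± 0.274 in P2 and 8.22 ± 0.760 in P1. The median change of the 14 targets was -0.04.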

How the data were processed

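Poly(A) RNA of mouse ventricles was sequenced in 6 libraries, 3 per age. The authors deposited 1 table of FPKM values per library, and all 6 columns were used, with no unmapped column. The submitters' processing notes name FastQC, TopHat2, R 3.2 and Cuffdiff 2.2.1. Build, annotation, filters, strand setting and scaling: not given in the sources used here. Groups came from the sample titles. Symbols (37605 of 39171 genes) and positions came from GENCODE M21.

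The members, lists, gene pairs and tests were chosen with earlier results of these data known, as were the 13 genes of the main line. The test was limma 3.58.1 (R 4.3.3) on log2(FPKM + 1) with age as the only factor, trended moderated variances and Benjamini-Hochberg adjustment over genes averaging 1 FPKM or more. Calls were made at a two-sided adjusted p under 0.05. FPKM hold no counts, so no count model was used. Members with an unadjusted p under 0.05 and no overlap between ages were named by rule. So were up to 3 genes with the smallest p per further list, not all of which are described here. Slc2a4, Slc2a3, Eno3, Pygb, Pygl, Slc16a3, Pfkfb2, Stbd1, Tbc1d1, Hif1a, Adm and Mxi1 were shown per library or by mean after their values were seen. The ratios of the gene pairs were tested by exact permutation (scipy 1.17.1).

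Because short RNAs get large FPKM values, scaling to equal sums is sensitive to them. Several members overlap another gene, among them Pfkm (Senp1), Pfkp (Pitrm1), Gys1 (Ruvbl2) and Gapdh (Iffo1), each on the opposite strand, so fragments there may belong to either gene. Alternatives were a pseudocount of 0.1, other filters (none, 5 FPKM) and scalings (equal sums, median ratio, quantile), no variance trend, array weights, no gene listed at 0, the replicate block and each library left out. The fit was tested on simulated data.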

Additional observations from a re-analysis of the deposited data

How the results depend on the processing

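Over all tested genes, the 22 calls became 40 with a pseudocount of 0.1, 41 with a filter of 5 FPKM, 2433 with equal FPKM sums, 14 with no variance trend and 111 without genes listed at 0, and 5 to 19 with a library left out (5 without P1 replicate 1 or 2, 11 without P2 replicate 1 or 2, 12 without P2 replicate 3, 19 without P1 replicate 3). The calls among the 34 genes, 0 as reported, were 2 with equal sums (Aldoc and Gaa), 1 without genes listed at 0 (Aldoc) and 0 with a library left out. With equal sums the members' median change was -0.14, against -0.14 for all tested genes, and the changes of Eno3, Hif1an and Foxk2 turned to -0.0464, -0.0885 and -0.0232. There 6 of the 34 members were higher in P2, 20 as reported, and the changes of Ldha, Ugp2, Pfkl, Pgam1 and Slc2a4 were 0.05, 0.07, 0.01, 0.05 and 0.04. Leaving out a library, the members' median lay between -0.0008 and 0.0378. The cause of these moves was not tested. Pygl's change ranged from -0.4452 to 0.2496 with a library left out. The log2 differences ranged from -0.0108 to 0.1448 for Hk2/Hk1, -0.0604 to 0.0877 for Pfkp/Pfkl, -0.1236 to 0.0758 for Pfkfb2/Pfkfb3 and -0.3849 to 0.4502 for Pygl/Pygb. The other 8 pairs kept their sign under every alternative run.

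Equal replicate numbers share only a number. The deviations of same-numbered libraries correlated at -0.01, 0.10 and 0.01, and only number 2 correlated best with its own number. With the replicate block, 5 genes were called in all and 0 members, and Txnip was among the calls (adjusted p = 0.0381). For the gene pairs the block left each difference as it was, and 3 replicate pairs allow no exact p under 0.25. Depth is unknown from FPKM, so the precision of low genes such as Pfkfb4 and Slc2a3 cannot be given.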

Other observations

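Stbd1, which encodes a protein that anchors glycogen to membranes, was singled out after its values were seen. It was at 41.2, 45.3 and 56.5 FPKM in P2 replicates 1 to 3 and at 15.8, 11.6 and 60.3 FPKM in P1 replicates 1 to 3. A P1 library was thus the highest of all 6, and the other P1 libraries were the lowest. The log2 change was 1.04 ± 0.58 (limma, Benjamini-Hochberg adjusted p = 0.392, range 0.0939 to 0.677 over the alternatives), and it was 0.59 without P1 replicate 2 and 1.73 without P1 replicate 3. The libraries low for Stbd1 were P1 replicates 1 and 2, whereas those low for Pygl were P2 replicate 2 and P1 replicate 1.

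Tbc1d1, a regulator of GLUT4 traffic, was named after its values were seen. It was at 17.9, 17.9 and 17.7 FPKM in P2 and at 14.9, 12.7 and 19.6 FPKM in P1, so the P2 libraries lay inside the P1 range (change 0.19 ± 0.14, limma adjusted p = 0.520).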
